A study of Mus musculus with 6 samples.

Results

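Integrins are the adhesion receptors that hold haematopoietic progenitors in the bone marrow, and 35 genes of this system were followed in LSK cells of wild-type (WT) and Ikaros-deficient (IkL/L) mice. The list was set by gene name and family, with earlier results of these data known, and held 17 alpha chains, 8 beta chains, 5 cell surface ligands (Icam1, Icam2, Icam4, Vcam1 and Madcam1) and 5 activators inside the cell (the kindlins Fermt1, Fermt2 and Fermt3 and the talins Tln1 and Tln2). Of these, 33 could be read from a probe set of their own, among 18193 genes on the array. Itga11 and Fermt1 had none here and were not analysed.

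LSK cells are the lineage-negative, Sca1-positive, c-Kit-positive fraction of bone marrow, which contains stem cells and multipotent progenitors. They had been sorted from C57BL/6 mice aged 6 to 7 weeks. The 3 WT samples came from 1 mouse each, and the 3 IkL/L samples each from a pool of 2 mice, so that genotype and pooling cannot be told apart. IkL/L mice are homozygous for a hypomorphic allele of Ikzf1, the gene of the zinc finger protein Ikaros. The allele lowers Ikaros in every cell that uses the gene, and not in LSK cells alone.

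An integrin is a pair of chains, 1 alpha and 1 beta, that spans the membrane. The pairing decides what is bound: collagens and laminins, fibronectin and fibrinogen, or counter-receptors such as VCAM-1 and the ICAMs on other cells. Talins and kindlins bind the tail of the beta chain and switch the receptor to its high-affinity form. In blood progenitors the best known receptors are those of Itga4 (VLA-4), Itga5 (VLA-5), Itga6 and Itgal (LFA-1), while the pair of Itga2b and Itgb3 is the fibrinogen receptor of platelets and megakaryocytes.

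All values are log2 RMA values, in which a difference of 1 is a doubling of signal. RMA gives no detection call, and the medians of the 6 arrays lay between 4.788 and 4.88. A gene with both group means under 4.88 is called dim here, and a level that low is no evidence of transcript. Arrays correlated with each other at 0.9861 to 0.995. The markers Kit, at 11.07 to 11.50, and Cd34, at 12.07 to 12.27, were bright on all arrays, and of 10 LSK markers 8 were measured and none was dim. Ly6a, which encodes Sca1, was not analysed here. Ikzf1 gave 11.57, 11.59 and 11.44 on the WT arrays and 10.77, 10.85 and 10.93 on the IkL/L arrays, and fell by 0.68 on the log2 scale (adjusted p = 0.0307 in limma). Leaving out 1 array gave -0.73 to -0.64, and the call held only without WT 3. Where its probe set lies relative to the altered part of the gene was not determined.

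At an adjusted p under 0.05 in limma, Itgb3 alone of the 33 measured genes rose in the mutant cells and 0 fell. Over all genes 0.989% passed, 0.748% upwards and 0.242% downwards. At an unadjusted p under 0.05, 6 of the 33 genes were higher and 3 lower, against 11.2% of all genes in either direction. In 9 genes the 3 IkL/L values lay wholly on 1 side of the 3 WT values, 6 above (Itgb3, Itgb1, Itga2b, Itga6, Itga1 and Icam2) and 3 below (Itgb5, Itgb7 and Itgax). Over all genes 17.2% stood apart in this way, 7.62% above and 9.59% below.

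**Figure D1:**
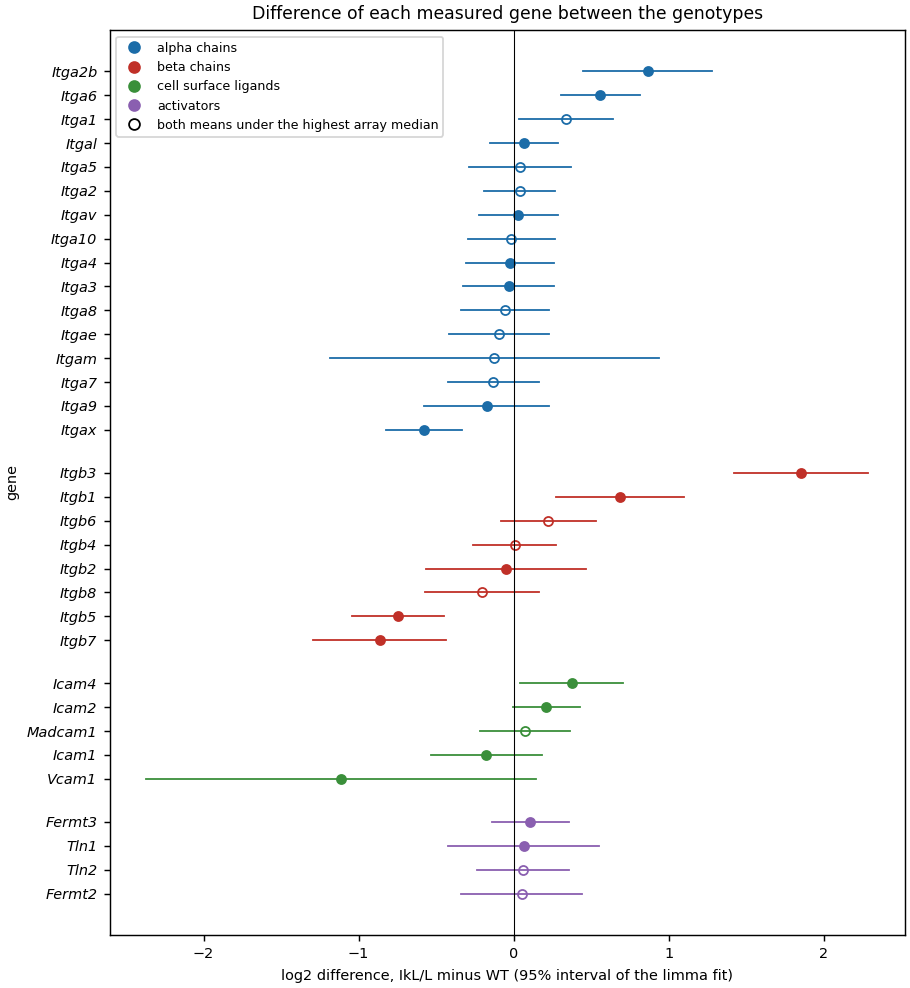
Log2 difference (IkL/L minus WT, horizontal axis) of the 33 measured genes, 1 row per gene, with the 95% interval of the limma fit as a line and classes in colour. Open circles are dim genes. Itgb3 lies farthest to the right at 1.85, and the intervals of Itgb5, Itgb7 and Itgax lie wholly below 0.

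The beta chains, which set the family an integrin belongs to, spread in both directions. Their log2 differences ran from -0.87 for Itgb7 to 1.85 for Itgb3 with a median of -0.02. Of the 8 chains 2 lay apart above WT and 2 below, against 7.62% and 9.59% of all genes. The median size of the difference, with the sign left out, was 0.45 for the 8 beta chains, 0.08 for the 16 measured alpha chains and 0.11 for all genes. Dim genes are included in these medians. Without them the medians were 0.75 for the beta chains, 0.12 for the alpha chains and 0.13 for all genes. All these medians are a description and carry no test.

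Itgb3 encodes the beta chain that platelets and megakaryocytes pair with Itga2b and that many other cells pair with Itgav. It stood at 7.67, 7.21 and 7.38 on the WT arrays and at 9.44, 9.49 and 8.89 on the IkL/L arrays. Every mutant array lay more than 1 log2 unit above every WT array. The gene rose 3.62-fold (log2 difference 1.85 ± 0.19, SE, n = 3 per group) with an adjusted p of 0.00878 in limma, and it ranked 38 of 18193 genes by p. Its dimmer probe set, at 4.79 to 4.94 on all 6 arrays, differed by -0.01, a level that is close to the array medians. The call was lost without IkL/L 1, with an adjusted p of 0.0593, and held without each of the other 5 arrays. Leaving out 1 array gave log2 differences of 1.75 to 2.05.

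Itgb1, the partner of most alpha chains and the receptor chain for fibronectin, laminins and collagens, had 7.75, 7.76 and 8.19 in WT and 8.39, 8.44 and 8.92 in IkL/L cells. The groups did not overlap, but the nearest arrays were only 0.20 apart. The difference of 0.68 ± 0.18 (SE, n = 3) did not pass (adjusted p = 0.24 in limma). A second probe set well above the medians gave 0.40 with overlapping groups, and the other 4 were dim. Averaged over all 6 probe sets the difference was 0.15.

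Itgb5, whose only known partner is Itgav and which binds vitronectin, lay lower in IkL/L cells. It had 8.83, 8.62 and 8.55 in WT and 7.74, 8.10 and 7.91 in IkL/L cells. The difference of -0.75 ± 0.13 (SE, n = 3) missed the threshold narrowly (adjusted p = 0.0589 in limma). Itgb5 has 4 probe sets, and on each of them all 3 mutant values lay under all 3 WT values. Their differences were -0.75, -0.88, -1.61 and -0.80 from the brightest to the dimmest, and the third of them passed, with an adjusted p of 0.0424. Of all probe sets 0.133% fell and 8.36% had non-overlapping groups with lower mutant values. The probe set that passed and the brightest are of the kind marked x by the manufacturer, in which some probes can bind other transcripts. The choice of probe set decided whether Itgb5 was called and did not change its direction.

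Itgb7 is the lymphocyte chain that joins Itga4 to form the gut-homing receptor for MAdCAM-1. Its values were 8.81, 8.15 and 8.32 in WT and 7.52, 7.79 and 7.38 in IkL/L cells. The highest mutant array lay 0.36 under the lowest WT array, and the difference of -0.87 ± 0.19 (SE, n = 3) did not pass (adjusted p = 0.126 in limma). It has a single probe set. Flt3, the cytokine receptor of early lymphoid progenitors and an LSK marker, was lower on each mutant array as well, with 10.97, 10.79 and 10.31 in WT and 9.56, 10.05 and 9.80 in IkL/L cells (adjusted p = 0.132). Of the 8 measured LSK markers none passed, and 4 were lower and 4 higher in the mean, among them Hlf at -0.59, Procr at 0.69 and Gata2 at 0.30. The part of a shift among progenitors in these values was not tested, and in bulk samples fewer cells of a type cannot be told apart from less RNA per cell.

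Itgb2, the common chain of the leukocyte integrins, was bright and showed no clear order. It had 8.59, 8.01 and 8.46 in WT and 8.07, 8.77 and 8.07 in IkL/L cells. The groups overlapped over most of their range, and the 95% interval of the difference ran from -0.57 to 0.47. Itgb4, Itgb6 and Itgb8, the chains of epithelia and of Itgav receptors that activate TGF-beta, were dim, with means between 2.62 and 4.27.

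**Figure D2:**
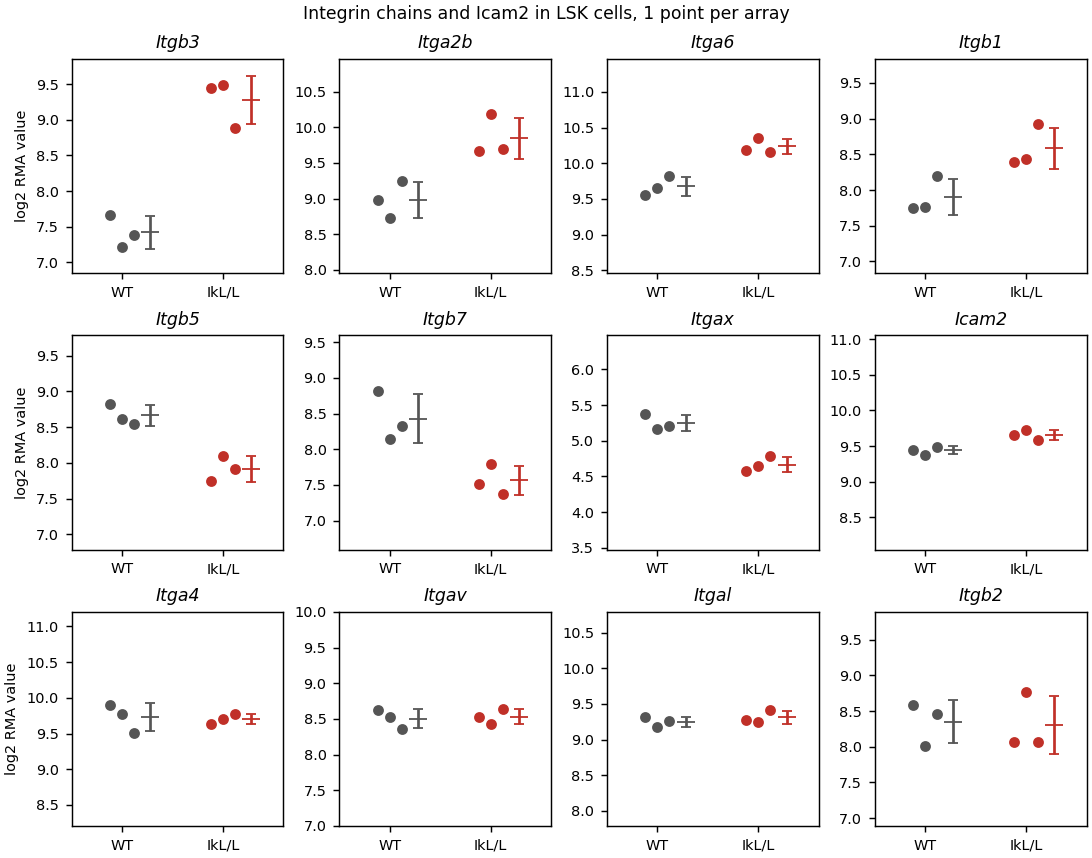
Expression of 11 integrin chains and Icam2, 1 point per array, in log2 RMA values (vertical axis). WT is grey and IkL/L red, and the bar beside each group is its mean ± SD (n = 3). Each panel spans 3 log2 units and does not start at 0. The groups do not overlap in the upper 2 rows of panels and overlap in the lowest row, with Itga4, Itgav, Itgal and Itgb2.

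Among the alpha chains, which carry most of the ligand specificity, none of 16 passed in limma. At an unadjusted p under 0.05, 3 were higher and 1 lower, against 11.2% of all genes in either direction. Itga2b and Itga6 lay above WT and Itgax below it. Of the 16 chains 8 were dim.

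Itga2b, or CD41, marks megakaryocytes and their progenitors and part of the stem cells. Its values were 8.98, 8.73 and 9.24 in WT and 9.67, 10.18 and 9.69 in IkL/L cells. All mutant arrays lay above the WT arrays, with IkL/L 2 the highest. The difference of 0.86 ± 0.18 (SE, n = 3) did not pass (adjusted p = 0.118 in limma). Thus both chains of the platelet fibrinogen receptor lay higher, and 1 of them was called.

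Of 11 measured markers of megakaryocytes and platelets 2 rose and 0 fell. These were Selp, the adhesion receptor P-selectin of platelet granules, at 5.59 to 7.69 in WT and 10.57 to 10.83 in IkL/L cells, and Vwf, von Willebrand factor, at 7.02, 7.12 and 7.75 against 9.03, 9.25 and 8.81. Selp was read from a probe set of the kind marked x. The study counts Vwf among genes that matter in stem and progenitor cells, so Vwf is not particular to platelets. The mean log2 level of the 11 markers was 5.94 to 6.53 on the WT arrays and 6.88 to 7.13 on the IkL/L arrays. Without Selp and Vwf the mean of the other 9 was 5.84 to 6.27 in WT and 6.21 to 6.48 in IkL/L cells and overlapped. Treml1 and Clec1b among the 9 stood apart above WT, whereas Ppbp, Gp6 and Tubb1 differed by -0.28, -0.08 and -0.16. Gp6, Clec1b and Tubb1 were dim in both groups. The part of more megakaryocyte-like cells in the values of Itgb3 and Itga2b was not tested.

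Itga6, a laminin receptor chain present on stem cells, had 9.56, 9.65 and 9.82 in WT and 10.19, 10.36 and 10.16 in IkL/L cells. The difference of 0.56 ± 0.11 (SE, n = 3) had an adjusted p of 0.1 in limma. Its other probe set differed by 0.45, but there the groups overlapped, since WT 2 at 8.95 exceeded IkL/L 1 at 8.72. Itga1, a collagen receptor chain, was apart as well, at 3.76 to 4.15 against 4.17 to 4.43, and was dim.

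Itgax, or CD11c, is the alpha chain that marks dendritic cells. It lay at 5.37, 5.16 and 5.20 in WT and at 4.58, 4.64 and 4.78 in IkL/L cells, which is under the array medians. The difference of -0.58 ± 0.11 (SE, n = 3) did not pass (adjusted p = 0.0764 in limma). Of 7 dendritic cell markers 2 rose and 0 fell. These were Cd74 and H2-Eb1 (adjusted p of 0.0317 and 0.0424 in limma), genes of antigen presentation that B cells use too. The mean level of the 7 was 5.85 to 5.89 in WT and 6.36 to 6.92 in IkL/L cells. The antigen presentation genes H2-Aa, H2-Ab1, H2-Eb1 and Cd74 gave 1.75, 0.91, 1.38 and 1.46. Siglech, Cd209a and Xcr1, the other markers of the list, were dim and gave 0.04, -0.19 and -0.23.

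Of the chains named above as best known in blood progenitors, Itga4 and Itgal showed no clear difference, whereas Itga6 lay above WT and Itga5 was dim. Itgav showed no clear difference either. Itga4 had 9.90, 9.78 and 9.51 in WT and 9.63, 9.70 and 9.78 in IkL/L cells. Itgal had 9.31, 9.17 and 9.26 against 9.27, 9.25 and 9.41. Itgav, the partner of Itgb3 and Itgb5, had 8.62, 8.53 and 8.36 against 8.52, 8.43 and 8.64. In each of these bright genes the groups overlapped and the differences were small, -0.03 for Itga4, 0.07 for Itgal and 0.03 for Itgav. The 95% intervals ran from -0.31 to 0.26, from -0.15 to 0.29 and from -0.22 to 0.28. The 4 other probe sets of Itga4 gave -0.22 to -0.05 and the 4 of Itgav -0.11 to 0.03.

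Itgam, or CD11b, was used to deplete lineage-positive cells before the sort, and was low. It stood at 5.30 on WT 1 and between 3.48 and 4.37 on the other 5 arrays. Its interval was wide, from -1.19 to 0.93. Of 12 markers of neutrophils and macrophages 1 rose (Lcn2), with a mean level of 5.05 to 5.57 in WT and 5.46 to 6.02 in IkL/L cells. Itga5, the fibronectin receptor chain, was dim by all 4 of its probe sets, the brightest with 4.48 to 4.96, and on 2 of the others the mutant values lay above WT, by 0.25 and 0.18. The laminin and tenascin receptor chains Itga3 and Itga9 gave -0.03 and -0.17, and Itga2, Itga7, Itga8, Itga10 and Itgae were dim, with differences of -0.13 to 0.04.

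**Figure D3:**
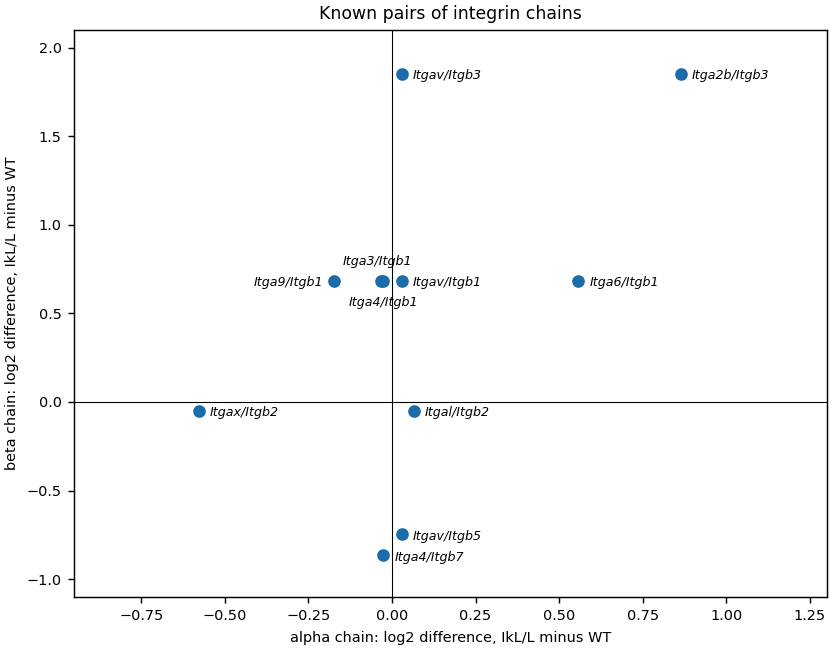
Log2 difference (IkL/L minus WT) of the beta chain (vertical axis) against that of the alpha chain (horizontal axis) for the 11 known pairs in which neither chain was dim. Itga2b with Itgb3 and Itga6 with Itgb1 are both displaced to the upper right, whereas the pairs of Itgav and Itga4 are spread along the vertical axis only.

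Set side by side by known pairs, most pairs did not show the same pattern in both chains. Of 23 pairs listed from textbook knowledge 22 had both chains measured, and in 11 neither was dim. In 2 of the 11, Itga2b with Itgb3 and Itga6 with Itgb1, both chains stood apart from WT in the same direction. In 7 only the beta chain did, in 1 (Itgax with Itgb2) only the alpha chain, and in 1 (Itgal with Itgb2) neither. Pairs that share a chain are not independent of each other. Itgav, with overlapping groups, thus stood beside a partner that rose, Itgb3, and another that lay lower, Itgb5. Itga4 stood likewise between Itgb1, which lay higher, and Itgb7, which lay lower. The values are of RNA, and which pairs reach the surface was not measured.

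**Figure D4:**
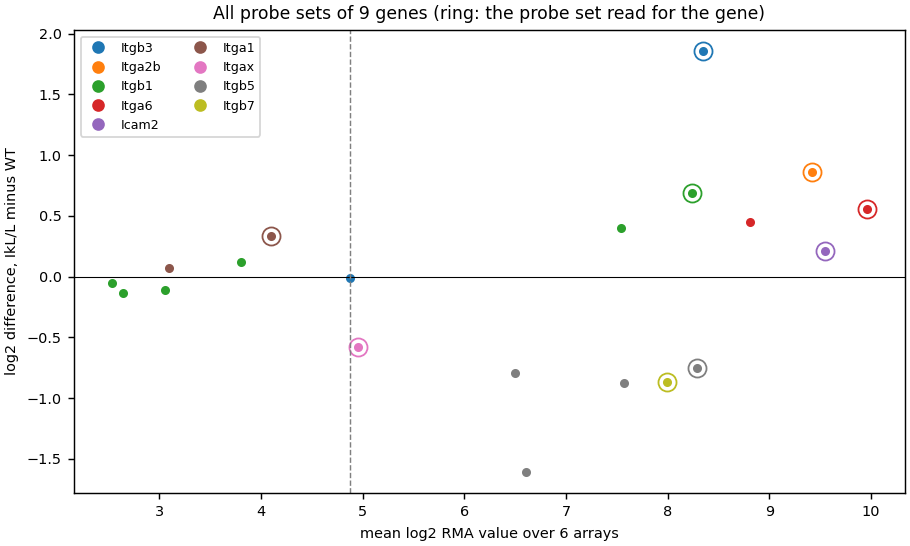
Log2 difference (IkL/L minus WT, vertical axis) against the mean log2 RMA value over 6 arrays (horizontal axis) for each probe set of the 9 genes whose groups did not overlap. Rings mark the probe set read for the gene and the dashed line the highest array median. All 4 probe sets of Itgb5 lie below 0, whereas the second probe set of Itgb3 and the dim ones of Itgb1 lie near 0.

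To show the stretch of DNA before the start of the genes that stood apart, the 250 bases upstream of the RefSeq start site (build GRCm38.p6) were read, with AGGAA, the letters the study uses as a motif of Ikaros, in capitals on either strand (AGGAA or TTCCT). A window was found for 25 of the 35 genes, and not for Itgb3 and Itga6. The windows of Itga2b and Itgb1, which lay higher in IkL/L cells, and of Itgb5 and Itgb7, which lay lower, are shown. They lie at chr11:102469884-102470133 (minus strand), chr8:128685404-128685653 (plus strand), chr16:33829415-33829664 (plus strand) and chr15:102231936-102232185 (minus strand).
Itga2b: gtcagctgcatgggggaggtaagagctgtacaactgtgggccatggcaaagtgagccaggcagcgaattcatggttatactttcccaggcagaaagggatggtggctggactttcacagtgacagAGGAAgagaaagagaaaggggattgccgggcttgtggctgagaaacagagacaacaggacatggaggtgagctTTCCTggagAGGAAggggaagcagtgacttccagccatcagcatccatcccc
Itgb1: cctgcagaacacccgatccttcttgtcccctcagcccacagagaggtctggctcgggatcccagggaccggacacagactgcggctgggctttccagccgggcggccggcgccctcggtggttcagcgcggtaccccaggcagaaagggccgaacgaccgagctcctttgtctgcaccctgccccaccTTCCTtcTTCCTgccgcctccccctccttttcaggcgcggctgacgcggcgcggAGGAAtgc
Itgb5: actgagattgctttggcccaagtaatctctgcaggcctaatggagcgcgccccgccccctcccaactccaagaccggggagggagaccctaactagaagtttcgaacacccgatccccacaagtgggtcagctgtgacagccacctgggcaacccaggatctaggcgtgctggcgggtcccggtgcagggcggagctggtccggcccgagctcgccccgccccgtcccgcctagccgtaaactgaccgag
Itgb7: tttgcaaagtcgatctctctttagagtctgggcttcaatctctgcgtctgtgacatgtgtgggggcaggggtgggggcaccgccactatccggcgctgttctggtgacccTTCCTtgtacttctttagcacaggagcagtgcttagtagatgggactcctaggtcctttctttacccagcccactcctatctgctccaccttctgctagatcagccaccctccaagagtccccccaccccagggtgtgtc

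The motif was met 3 times in each of the windows of Itga2b and Itgb1, once in that of Itgb7 and not at all in that of Itgb5. Among the other non-overlapping genes with a window it was met 3 times for Itga1 and not for Itgax. Genes with overlapping groups had as many, with 4 matches for Itga5 and 3 for Itgam. Of the 27 windows of listed genes 19 held it (70.4%), against 60.3% of all 32851 windows of this length, and 26% of all windows held it more than once. The motif is short and contains the GGAA core of ETS factors, and a match is a description of the sequence and not a binding site.

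The cell surface ligands, which integrins of a neighbouring cell bind, did not pass in any of 5 cases. Icam2, a ligand of LFA-1, had 9.45, 9.38 and 9.49 in WT and 9.65, 9.72 and 9.59 in IkL/L cells. The groups were apart, but the difference was small at 0.21 (95% interval -0.003 to 0.425, adjusted p = 0.573 in limma). Icam4, the erythroid member of the family, had 6.99, 6.99 and 7.43 against 7.53, 7.62 and 7.37, so that WT 3 overlapped with IkL/L 3, and gave 0.37 (adjusted p = 0.5). Of 7 measured erythroid markers 1 rose, Aqp1 (adjusted p = 0.0425 in limma). The mean level of these markers was 6.15 to 6.55 in WT and 6.97 to 7.79 in IkL/L cells. Their part in the value of Icam4 was not tested. Icam1 gave -0.18, and Madcam1 was dim.

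Vcam1, the ligand of VLA-4, is made by stroma, endothelium and macrophages of the marrow, and had the largest SE of the 33 measured genes. It had 6.53, 5.30 and 6.52 in WT and 4.66, 6.23 and 4.11 in IkL/L cells. The 3 highest values were those of WT 1, WT 3 and IkL/L 2. The difference of -1.11 ± 0.54 (SE, n = 3) did not pass (adjusted p = 0.625 in limma) and ran from -1.73 to -0.67 when 1 array was left out. A second probe set at 5.02 to 5.48 gave 0.05. The third was dim and gave -0.27, with all mutant values under all WT values, and did not pass. C1qa, a complement gene of tissue macrophages, had the same arrays on top, with 5.67, 4.65 and 5.81 in WT and 4.33, 5.04 and 4.15 in IkL/L cells, and so had C1qb, which was dim. The macrophage genes Cd68 and Adgre1 did not share this order (these genes were picked from the marker list after their values were seen), and the mean of 10 markers of stroma and endothelium, of which Cdh5 rose, was highest on WT 1, at 6.07, and between 5.43 and 5.73 on the others. Within that list the stromal chemokine gene Cxcl12 had the same 3 arrays on top as Vcam1, with 6.41, 4.64 and 5.86 in WT and 4.70, 5.14 and 4.79 in IkL/L cells. The stromal genes Col1a1, Col1a2 and Sparc of the same list did not, and were highest on WT 1 and WT 2. Col1a2, for example, had 10.12, 9.56 and 7.78 in WT and 7.65, 8.34 and 7.87 in IkL/L cells. The part of other cells in the values of Vcam1 was not tested.

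**Figure D5:**
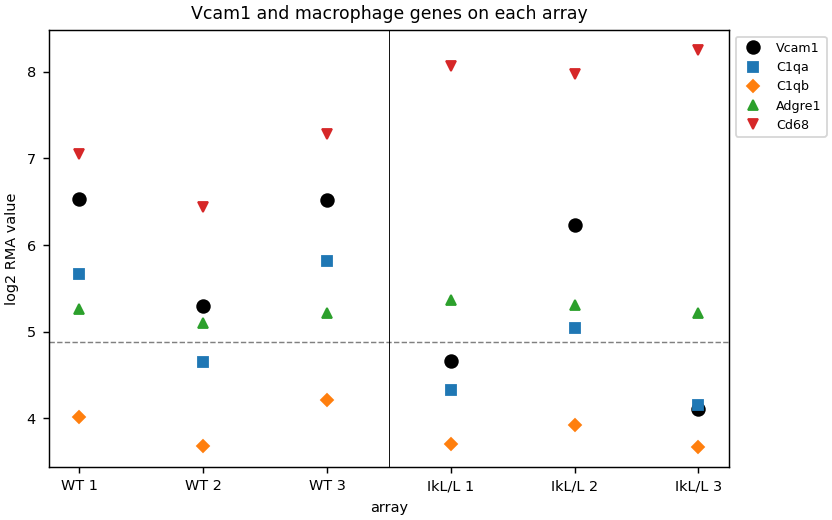
Log2 RMA value (vertical axis) of Vcam1 and 4 macrophage genes on each array (horizontal axis), with the highest array median as a dashed line. Vcam1 (black) and C1qa (squares) are highest on WT 1, WT 3 and IkL/L 2, whereas Cd68 is higher on each IkL/L array.

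The activators showed no difference past the threshold. Fermt3, the kindlin of blood cells, was the brightest listed probe set and stood at 12.58, 12.32 and 12.36 in WT and at 12.46, 12.62 and 12.49 in IkL/L cells. Tln1, the talin of blood cells, had 10.73, 10.03 and 10.81 against 10.50, 10.45 and 10.80, with WT 2 the lowest. The groups overlapped for both, with differences of 0.11 (95% interval -0.14 to 0.36) and 0.06 (-0.42 to 0.55). Fermt2 and Tln2, the relatives that prevail outside blood, were dim. The 3 dimmer probe sets of Fermt3 gave 0.28, 0.49 and 0.46 and those of Tln1 -0.07 and 0.48. On the last 2 of Fermt3 and the last of Tln1 the mutant values lay above all WT values, but none of them passed.

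Of 37 measured genes that act with integrins inside the cell 1 rose, the actin crosslinker Actn1, and none fell. Actn1 had 8.86, 8.67 and 8.74 in WT and 9.50, 9.65 and 9.72 in IkL/L cells, a rise of 1.82-fold (adjusted p = 0.0158 in limma) with no overlap. The call held without WT 2 or WT 3 and was lost in the other 4 cases, at differences of 0.82 to 0.93. With the mean of its probe sets the difference was 0.34 and did not pass. Vcl, or vinculin, which binds talin and actin, gave 0.42 (adjusted p = 0.177), the parvin Parvb 0.89 (0.303), Tns1, a tensin, -0.56 (0.299) and Rasgrp2, the exchange factor of Rap1, 0.30 (0.505). The median of the 37 differences was 0.05, against -0.02 over all genes. The groups did not overlap in 8 of the 37, against 17.2% of all genes.

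Of 24 measured matrix and soluble ligands 1 rose, Vwf, a ligand of the platelet fibrinogen receptor that is also among the megakaryocyte markers. It rose 3.32-fold (adjusted p = 0.0154 in limma). The call held without WT 2, WT 3 or IkL/L 3 and failed in the other 3 cases. Fn1, fibronectin, had 5.87, 5.38 and 5.41 in WT and 6.96, 7.10 and 6.02 in IkL/L cells and did not pass (1.14, adjusted p = 0.193), nor did Emilin1 (0.68, 0.233), Lamb3 (-0.27, 0.656) and Lamb2 (0.35, 0.66). Of these 24 genes 17 were dim. Of 16 further surface partners of integrins 2 rose and none fell. Thy1, a ligand of Itgb3 integrins on other cells, rose 2.82-fold from 6.51, 6.19 and 6.61 to 7.71, 8.38 and 7.72 (adjusted p = 0.0223 in limma), and the tetraspanin Cd9, an associate of beta1 integrins, rose by 0.68 on the log2 scale (adjusted p = 0.0425). The call of Thy1 was lost without WT 1, WT 2 or IkL/L 1, and that of Cd9 whichever array was left out and after a second quantile normalization (adjusted p = 0.0522). With the replicate number as a block neither passed, at adjusted p of 0.0873 for Thy1 and 0.12 for Cd9. Esam gave 1.22 (0.0962), F11r 0.59 (0.414), Cdh1 0.35 (0.471) and Bsg 0.36 (0.561).

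The genes outside the list whose 6 values were most like those of Itgb3 were Cdh5 (Pearson r = 0.9938), Inppl1 (0.9924) and Fgd5 (0.9915), each over 6 arrays. All 3 rose as well, from means of 3.82 to 6.33, 6.79 to 7.91 and 7.57 to 9.22, and a shared difference between the genotypes is enough to give a correlation of this kind.

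Markers of other cells also differed between the genotypes. Of 8 markers of B lineage and plasma cells 3 rose (Ms4a1, Vpreb1 and Mzb1), with a mean level of 5.13 to 5.40 in WT and 6.27 to 7.22 in IkL/L cells, although B220 was among the antigens used for depletion. Of 6 markers of basophils and mast cells 1 rose (Mcpt8), at 6.18 to 6.61 against 7.25 to 7.48. None of 7 markers of T and NK cells passed, at 5.44 to 5.59 against 5.50 to 5.55. The part of such cells in the values of the integrin genes was not tested.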

How the data were processed

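Total RNA of sorted LSK cells (100 ng, 2 cycles of labelling) was hybridised to Affymetrix whole-genome mouse arrays. The values the authors deposited are on the log2 scale, after background correction, quantile normalization and summary per probe set by RMA. The submitters' processing notes name R 2.8 and RMA. Per the methods, LSK arrays were normalized together with thymocyte arrays, which are not analysed here. Quantile normalization removes differences in total RNA.

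The table held 45037 probe sets, of which 34945 had 1 gene in the platform annotation, 932 several and 9160 none listed. Symbols were updated through Entrez numbers for 34741. Each gene was read from its probe set with the highest mean over the 6 arrays. For each probe set a linear model with genotype as the only term was fitted by limma 3.58.1 (R 4.3.3) and tested two-sided with eBayes; p was adjusted by Benjamini-Hochberg across the whole array. Spread here is that of 3 samples per group, and the number of arrays limits precision. On simulated arrays with the real means, 40%, 84%, 100% and 100% of 50 probe sets changed 1.5-, 2-, 4- and 8-fold were recovered, and 7.43% of calls were false. The changed probe sets all had a mean above 6, each variance was averaged with the median variance, and the noise was normal and independent. These rates therefore do not hold for dimmer genes or for genes of wide spread such as Vcam1 and Itgam.

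The genes and lists were chosen with earlier results of these data known. All listed integrin genes are named, and of each pathway list the genes that passed and up to 4 more with the smallest p. Marker genes were named by p, up to 3 a list, but Kit, Cd34, H2-Ab1, dim markers, markers that went the other way and the genes set beside Vcam1 were chosen after their values were seen, and not all markers of small p are named. Alternatives were median centring, a second quantile normalization, array weights, robust moderation with an intensity trend, the replicate number as a block, removal of dim probe sets, averaging the probe sets of each gene, adjustment over genes only, and leaving out each array.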

Additional observations from a re-analysis of the deposited data

How the results depend on the processing

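Itgb3 was called under all 8 alternatives that kept the 6 arrays, with log2 differences of 0.92 to 1.87; the lowest came from the mean of its probe sets, which averages in the one near the array medians. Among the listed genes the count of genes higher was 2 with probe sets averaged per gene (Itga2b added), 3 with adjustment over genes only (Itga2b and Itga6 added), and 0 to 1 when 1 array was left out. The count of genes lower, 0 as reported (3 at an unadjusted p under 0.05), was 1 after a second quantile normalization (Itgb5), 2 with array weights and 2 with probe sets averaged (Itgax and Itgb5), and 3 with adjustment over genes only (Itgb7 added). It stayed at 0 when 1 array was left out. The signalling count was 0 with the replicate block and 0 with the mean of probe sets, and the matrix ligand count 0 with the block; without 1 array they ran from 0 to 1 and from 0 to 2, with Fn1 and Vwf called without IkL/L 3. Over all genes 180 were called, 106 with the block, 317 with the mean of probe sets, 401 with adjustment over genes only, and 45 to 168 without 1 array. Same-numbered samples did not deviate together (correlations 0.0084, -0.1121 and 0.0789), and no WT sample correlated best with its own number except WT 3. The values thus gave no sign of a pairing by replicate number. With 3 samples per group, and deviations taken from the mean of each group, they cannot exclude one. With the block Itgb3 stayed called, and the calls of Actn1, Vwf, Thy1, Cd9 and Ikzf1 were lost, at adjusted p of 0.0724, 0.0591, 0.0873, 0.12 and 0.118.

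Of 38 named genes, 16 crossed 0 under some setting, none of them called and none with a difference above 0.174 in size. The 38 were the measured listed genes, the pathway genes that passed and Ikzf1. Calls of other marker genes, such as Aqp1 and H2-Eb1, were not followed under these settings. With median centring Itga10 was 0.0016, and 0.0038 after a second quantile normalization. With array weights Itga8 was 0.0038, Itga10 0.0123, Itgb4 -0.0098, Fermt2 -0.021 and Tln1 -0.046. With the mean of probe sets Itgav was -0.045 and Fermt2 -0.099. Without 1 array the ranges were -0.009 to 0.084 for Itga2, -0.103 to 0.101 for Itga3, -0.136 to 0.061 for Itga4, -0.076 to 0.163 for Itga5, -0.114 to 0.034 for Itga8, -0.306 to 0.035 for Itga9, -0.082 to 0.080 for Itga10, -0.169 to 0.048 for Itgae, -0.455 to 0.452 for Itgam, -0.040 to 0.086 for Itgav, -0.283 to 0.069 for Itgb2, -0.056 to 0.097 for Itgb4, -0.012 to 0.193 for Madcam1, -0.141 to 0.164 for Fermt2, -0.182 to 0.208 for Tln1 and -0.061 to 0.158 for Tln2.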
